A study of Mus musculus with 7 samples.

Results

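The secreted Wnt antagonists described here are 6 genes of the mouse, Dkk2, Dkk3, Sfrp1, Sfrp2, Frzb and Wif1. They were chosen by name, with earlier results of these data known. Every probe set annotated to each of them alone was taken, which gave 11 of the 22690 probe sets on the array and 6 of the 12394 genes named there. Sfrp1 had 4 probe sets, Dkk3 and Frzb had 2 each, and Dkk2, Sfrp2 and Wif1 had 1 each. The cells were mouse embryonic fibroblasts, and each of the 7 groups was read on 1 Affymetrix array. The p53-Dnmt1-null cells (p53-/- Dnmt1-/-), which lack the tumour suppressor p53 and Dnmt1, the maintenance DNA methyltransferase, were profiled untreated, after 24 h and 48 h with TSA, or trichostatin A, which inhibits histone deacetylases, and 2 weeks after TSA removal. The p53-null cells (p53-/-), which lack p53 alone, were profiled untreated and at 24 h and 48 h of TSA. The loss of p53 is thus shared by all 7 groups. The sources used here do not give the TSA dose, the length of exposure before removal or the number of cultures behind an array, so genotype and culture cannot be told apart.

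Wnt proteins are secreted ligands that bind Frizzled receptors together with the co-receptors Lrp5 and Lrp6, and in the canonical pathway this stabilises beta-catenin, which then acts with Tcf factors on target genes. The antagonists work outside the cell at different points. Sfrp1, Sfrp2 and Frzb carry a cysteine-rich domain like that of the Frizzled receptors and bind Wnt proteins. Wif1 binds Wnt proteins through a different domain, and Dkk2 binds the Lrp co-receptors. Dkk3 is a divergent Dickkopf protein whose action on Wnt signalling is less settled. Several of these genes are known in human tumours for promoters that are silenced by DNA methylation, and they are also products of mesenchymal cells.

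Signals were linear intensities scaled by the authors to a common mean, with median signals between 41.9 and 48.8 on the 7 arrays. Differences are given on the scale log2(signal + 11.4), which damps dim signals and understates the change of dim genes. A gene or probe set was tested if its signal exceeded 45.6, the median of all signals, on at least 1 array. The labelled cell type was checked against marker lists, which were also chosen with earlier results of these data known. All of the 12 fibroblast markers passed this limit, and vimentin (Vim) and fibronectin (Fn1) were bright on each array, with lowest signals of 4047.7 and 2662.8. Between genotypes 9 of the 12 were lower in p53-Dnmt1-null cells, 1 was higher and 2 did not pass, with summed signals of 9272.2 to 16673.5 in p53-Dnmt1-null and 30476.6 to 37934.9 in p53-null arrays. Of the mesothelial and simple epithelial markers 9 of 9 were higher in p53-Dnmt1-null cells, with sums of 9705.9 to 17030.7 in p53-Dnmt1-null and 150.9 to 421.4 in p53-null arrays. Over all features tested, 19.4% were lower and 19.4% higher. Krt18, Krt7, Msln, Upk3b, Wt1, Cdh1 and Epcam passed the limit only through p53-Dnmt1-null arrays, and the fibroblast markers Lum and Postn only through p53-null arrays. The direction of these genes was thus to some extent set by the limit. Macrophage sums were 141.7 to 301.8 in p53-Dnmt1-null and 94.5 to 125.3 in p53-null arrays, with Ptprc at most 11.9 and Itgam at most 9.9. Both macrophage markers that were tested were higher in p53-Dnmt1-null cells, Csf1r by 1.38 ± 0.20 and Cd68 by 1.02 ± 0.30 (log2 scale, SE, limma adjusted p of 0.000973 and 0.0271). Neural sums were 353.6 to 563.2 in p53-Dnmt1-null and 191.3 to 467.4 in p53-null arrays, and endothelial sums 23.9 to 97.7 in p53-Dnmt1-null and 70.0 to 84.9 in p53-null arrays. Of the basal epithelial markers Krt14 was higher, and it too passed the limit only through p53-Dnmt1-null arrays. Krt5, Krt15 and Trp63 were at most 24.3, 5.9 and 14.3. In such bulk RNA, fewer cells of a type and less RNA per cell cannot be told apart. The fibroblast and the mesothelial sums did not overlap between genotypes, so genotype and the kinds of cell present cannot be told apart in the results below either.

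The promoters of Dkk2, Frzb and Sfrp2 are shown because the first of these genes had the largest genotype difference among the antagonists, the second differed in the same direction and the third did not pass the test, and because Dnmt1 copies methylation at CpG dinucleotides, which are set in capitals. Each window runs from 250 bases before to 50 bases after a transcript start, 5′ to 3′ on the strand of the gene, from RefSeq on build GRCm38.p6. For Frzb that start is the outermost start of the annotated gene, while for Dkk2 it lies 26 bases and for Sfrp2 571 bases inside the outermost one. The windows lie at chr3:132085042-132085341 (plus strand), chr2:80447347-80447646 (minus strand) and chr3:83766071-83766370 (plus strand).
Dkk2: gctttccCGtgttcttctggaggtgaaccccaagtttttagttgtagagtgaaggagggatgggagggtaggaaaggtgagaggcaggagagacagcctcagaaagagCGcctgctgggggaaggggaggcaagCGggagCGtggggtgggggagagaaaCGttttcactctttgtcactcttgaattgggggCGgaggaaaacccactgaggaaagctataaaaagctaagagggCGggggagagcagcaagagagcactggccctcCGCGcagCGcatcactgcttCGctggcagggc
Frzb: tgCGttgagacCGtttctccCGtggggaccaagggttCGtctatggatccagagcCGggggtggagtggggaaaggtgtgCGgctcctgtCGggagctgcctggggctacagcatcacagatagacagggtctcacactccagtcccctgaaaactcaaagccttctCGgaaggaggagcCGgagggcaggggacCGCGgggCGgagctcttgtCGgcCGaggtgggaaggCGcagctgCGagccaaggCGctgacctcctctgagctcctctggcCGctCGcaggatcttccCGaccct
Sfrp2: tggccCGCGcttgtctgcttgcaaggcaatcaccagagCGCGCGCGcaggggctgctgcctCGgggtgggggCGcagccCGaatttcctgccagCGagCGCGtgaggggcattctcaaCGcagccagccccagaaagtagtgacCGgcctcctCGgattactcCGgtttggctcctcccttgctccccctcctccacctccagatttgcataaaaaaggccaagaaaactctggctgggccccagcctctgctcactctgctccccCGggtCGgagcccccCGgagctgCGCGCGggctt

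The Dkk2 window held 11 CpG dinucleotides, the Frzb window 20 and the Sfrp2 window 22. The Wif1 window, at chr10:121033754-121034053, held 25. Of 32851 promoter windows of the same 300-base length in the same table, 58.6% held fewer CpG than Dkk2, 73.5% fewer than Frzb, 76.9% fewer than Sfrp2 and 81.6% fewer than Wif1, and the median window held 7. The GC content was 57.7% for Dkk2, 64.7% for Frzb, 66.0% for Sfrp2 and 63.0% for Wif1. The letters TATAAA, searched on both strands, were found in the Dkk2 window, 32 bases before that start on the strand of the gene, and in the Wif1 window, and in 13.6% of all windows. The letters CTTTGA, a core that Tcf factors bind, were found on either strand in the Frzb window but not in the other 3, and in 16.0% of all windows. No methylation was measured, so these windows describe sequence only. Dkk3 and Sfrp1 are not among the promoters used here.

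**Figure D1:**
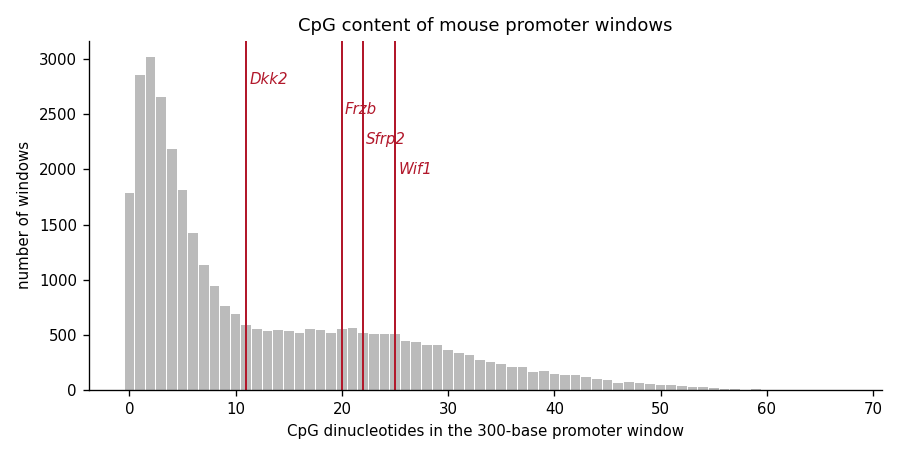
Number of CpG dinucleotides per 300-base promoter window (x axis) against the number of mouse promoter windows with that count (y axis, grey bars, 32851 windows). Red lines mark Dkk2 at 11, Frzb at 20, Sfrp2 at 22 and Wif1 at 25, all above the median of 7.

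The first question of the series is what the loss of Dnmt1 does to gene silencing. Dkk2, Dkk3, Sfrp1 and Frzb all fell in p53-Dnmt1-null cells relative to p53-null cells. On the brightest probe set of each gene, they were dim in every p53-Dnmt1-null array, with or without TSA, and were read on every p53-null array. Sfrp2 was bright in both genotypes and did not pass the test, and Wif1 was dim on all 7 arrays. None of the antagonists was called higher in the cells without Dnmt1. Dkk2, Dkk3, Sfrp1 and Frzb passed the limit only through p53-null arrays, so a higher call was hardly open to them. Wif1 was not tested.

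Dkk2, which binds the Lrp co-receptors, showed the widest gap. Its signal was 1.0, 0.6 and 0.7 in p53-Dnmt1-null cells (TSA for 0, 24 and 48 h) and 0.8 after TSA removal, against 263.0, 691.0 and 1108.0 at the same times in p53-null cells. The 4 p53-Dnmt1-null arrays lay near the bottom of the scale, far below every p53-null array. Dkk2 differed between genotypes by -5.62 ± 0.35 (log2 scale, SE over 3 arrays per genotype, limma adjusted p = 1.34e-05), with a 95% interval of -6.43 to -4.82. The paired differences were -4.47 untreated, -5.87 at 24 h and -6.53 at 48 h, so the gap was smallest in untreated cells.

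Dkk3, the divergent Dickkopf protein, was read by a pair of probe sets that gave like values. The first, 1417312_at, read 24.5, 31.4 and 37.6 in p53-Dnmt1-null cells and 37.3 after removal, against 537.6, 508.0 and 1075.7 in p53-null cells. The second, 1448669_at, had 30.9, 22.8, 33.1 and 23.4 in p53-Dnmt1-null cells, compared with 577.4, 538.0 and 1320.2 in p53-null cells. Neither probe set had overlapping genotypes. Dkk3 had a log2 difference of -4.00 ± 0.21 (SE, limma adjusted p = 6.56e-06), and the second probe set gave -4.24 ± 0.24 when every probe set was tested.

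Sfrp1, a Wnt-binding antagonist with 4 probe sets, was represented by 1448395_at, the brightest. Its signals were 16.1, 18.3 and 15.0 in p53-Dnmt1-null cells and 18.6 after removal, against 130.0, 236.7 and 262.2 in p53-null cells. The genotypes did not overlap on this probe set, and the log2 difference was -2.93 ± 0.24 (SE, limma adjusted p = 5.26e-05). The probe sets 1416594_at and 1460187_at gave -2.87 ± 0.26 and -2.70 ± 0.29, also without overlap. The remaining probe set, 1438620_x_at, whose suffix marks probes shared with other sequences, went its own way. It had 26.7, 45.1, 52.1 and 17.0 in p53-Dnmt1-null cells, set against 86.1, 43.2 and 79.7 in p53-null cells. Its genotypes overlapped, and its difference of -0.61 ± 0.28 did not pass (limma adjusted p = 0.121).

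Frzb, another Wnt-binding antagonist, was dimmer. The probe set 1416658_at read 3.4, 16.3 and 3.1 in p53-Dnmt1-null cells and 2.0 after removal, against 48.2, 92.3 and 85.8 in p53-null cells. All p53-Dnmt1-null values were below all p53-null values, the highest of them at 24 h of TSA. The log2 difference was -2.22 ± 0.29 (SE, limma adjusted p = 0.000659). The other probe set, 1448424_at, stayed under the limit for testing, with 19.6, 14.3, 13.3 and 1.7 in p53-Dnmt1-null cells, set against 14.9, 28.0 and 29.3 in p53-null cells, and its genotypes overlapped.

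Sfrp2, the third Wnt-binding antagonist of its family here, was the exception among the genes that were tested. Its signals were 799.3, 1176.7 and 1561.8 in p53-Dnmt1-null cells and 437.8 after removal, against 1619.8, 894.0 and 2392.4 in p53-null cells. The genotypes overlapped, since the p53-null array at 24 h lay below the p53-Dnmt1-null arrays at 24 h and 48 h. The log2 difference was -0.41 ± 0.23 (SE, limma adjusted p = 0.195), with a 95% interval of -0.94 to 0.12. This rests on the 24 h pair, where the difference was 0.39, against -1.01 untreated and -0.61 at 48 h. Without that pair Sfrp2 was lower by -0.81 (limma adjusted p = 0.0012), a p-value from fewer arrays. Without the untreated pair the difference was -0.11 (limma adjusted p = 0.717), and without the 48 h pair -0.31 (limma adjusted p = 0.448). Wif1, which binds Wnt proteins, read 0.2, 5.5, 2.0 and 5.8 in p53-Dnmt1-null cells, set against 3.7, 6.4 and 11.1 in p53-null cells, all under the limit for testing.

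**Figure D2:**
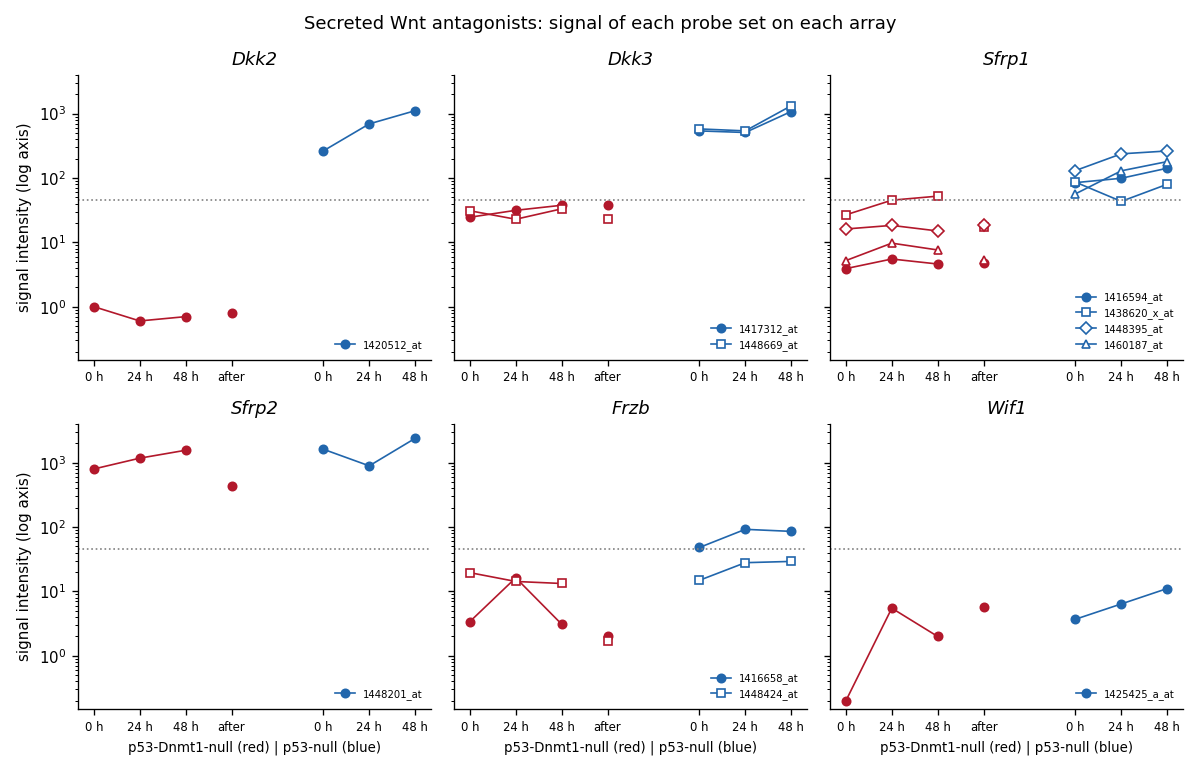
Signal intensity of each probe set (log axis) on each array, with 1 panel per gene and 1 symbol per probe set. The p53-Dnmt1-null arrays (red) are on the left of each panel, at 0, 24 and 48 h of TSA and 2 weeks after removal, the p53-null arrays (blue) on the right, and the dotted line is the limit of 45.6. Dkk2, Dkk3 and 3 of 4 probe sets of Sfrp1 separate by genotype, while Sfrp2 overlaps and Wif1 is under the line throughout.

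Of all 11 probe sets 7 had every p53-Dnmt1-null array below every p53-null array, while this held for 13.3% of all 22626 probe sets other than controls. Of the 6 genes 5 passed the limit for testing, and limma called 4 lower and 0 higher, where it called 19.4% of all 9390 features lower and 19.4% higher. The 7 probe sets belong to the 4 called genes. These genes passed the limit only through p53-null arrays, each on all 3 of them, so a low value in p53-Dnmt1-null cells was to some extent set by that limit. The antagonists were also chosen with earlier results of these data known, so the counts describe them and are no test against the shares of all features. By size, the same 4 genes were at least 2-fold lower at 0, 24 and 48 h, which held for 5.99% of all features, while 5.11% were as much higher.

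On the brightest probe set of each gene, the called antagonists were lower on every p53-Dnmt1-null array than on any p53-null array. High correlations among them over the same 7 arrays largely follow from that split and are no further result. Pearson's r of log2 values was 0.99 between Dkk2 and Dkk3, 0.98 between Dkk3 and Sfrp1 and 0.97 between Sfrp1 and Frzb. It was 0.96 between Dkk2 and Frzb and 0.94 between Dkk3 and Frzb, while Sfrp2 had r of 0.48 to 0.56 with the other 4. Among 8298 named genes, the 3 most like Dkk2 were Hoxd10 (r = 0.999), Sorcs2 (r = 0.999) and Sfrp1 (r = 0.998). Those most like Sfrp1 were Hoxd10 (r = 0.998), Dkk2 (r = 0.998) and Col10a1 (r = 0.997). Hoxd10, a homeobox transcription factor, read 1.3, 2.2, 0.5 and 1.5 in p53-Dnmt1-null cells, set against 103.6, 177.0 and 246.5 in p53-null cells. Those most like Dkk3 were the T-box factor Tbx15 (r = 0.999), Abi3bp (r = 0.997) and thrombomodulin, Thbd (r = 0.996). Those most like Frzb were 3830406C13Rik, Lrpap1 and Bcap31, at r of 0.991, 0.991 and 0.990. Those most like Sfrp2 were Sufu, Snx19 and Emc3, at 0.969, 0.963 and 0.962. Each r is over 7 arrays and is a description.

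The other parts of the Wnt pathway were read from lists that were also chosen with earlier results of these data known. The lists are given as the members that passed the limit for testing, with differences on the log2 scale, SE and limma adjusted p. Against the median of 0.04 over all features, the list medians were -2.93 for the 5 antagonists described above, -0.72 for other secreted antagonists, 0.83 for ligands and their secretion factors, -0.64 for receptors and co-receptors, 0.07 for the R-spondin side, -0.03 for intracellular components and -0.88 for target genes. Several members of each list passed through the arrays of 1 genotype only, which bears on these medians and on the counts and calls below. Among the genes named below, Porcn, Fzd8, Ror2, Fzd1, Rspo2, Tle2, Tcf7l2, Ccn5, Msx1, Msx2, Apcdd1 and Gpc3 passed only through p53-null arrays. A low value of these genes in p53-Dnmt1-null cells was thus to some extent set by the limit.

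Of 12 other secreted antagonists with a probe set 5 were tested, with 1 higher, 1 lower and 3 that did not pass, near the 19.4% each way over all features. Igfbp4, an IGF-binding protein that can also restrain Wnt signalling, was higher by 0.59 ± 0.09 (limma adjusted p = 0.00139). Notum, an enzyme that removes the lipid of Wnt proteins, was lower by -1.09 ± 0.29 (limma adjusted p = 0.019), but did not pass without the 24 h pair, at -0.68 (limma adjusted p = 0.0657), or without a limit on dim genes (limma adjusted p = 0.0631). Sfrp4, named after its values were seen, was read on every array and did not pass, at 0.01 ± 0.18 (limma adjusted p = 0.98). It had 102.2, 91.8, 108.8 and 62.6 in p53-Dnmt1-null cells, set against 110.2, 81.7 and 111.3 in p53-null cells. Apcdd1, a membrane-bound inhibitor, and the glypican Gpc3 did not pass either, at -0.80 ± 0.31 and -0.72 ± 0.35. Without the untreated pair Apcdd1 was lower by -1.16 (limma adjusted p = 0.0202) and Gpc3 by -1.22 (limma adjusted p = 0.00995). Dkk1, Dkk4, Dkkl1, Sfrp5, Sost, Sostdc1 and Cer1 were too dim to test.

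Of 21 ligands and secretion factors with a probe set 10 were tested, and 5 were higher in p53-Dnmt1-null cells, 2 lower and 3 did not pass, beside 19.4% each way over all features. Wnt4, a ligand of kidney and reproductive tract development, was higher by 5.43 ± 0.22 (limma adjusted p = 1.89e-06). Wnt10a and Wnt11 were higher by 2.22 ± 0.22 and 2.22 ± 0.29, and Wnt6 by 1.25 ± 0.22. The 2 that were lower were Porcn and Wls, which acylate and carry Wnt proteins on their way out of the cell, both named after their values were seen, at -0.87 and -0.86. Wnt4 and Wnt10a passed the limit only through p53-Dnmt1-null arrays.

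Among receptors and co-receptors 11 of 16 were tested, with 1 higher, 7 lower and 3 that did not pass, again beside 19.4% each way. Fzd8, a Frizzled receptor, was lower by -3.78 ± 0.36 (limma adjusted p = 0.000121), the Wnt5a receptor Ror2 by -1.59 ± 0.22 and Fzd1 by -1.37 ± 0.25, and Fzd6 was the one that was higher, by 1.49 ± 0.19. The R-spondins, secreted proteins that raise the number of Frizzled receptors at the cell surface, parted by member. Rspo1 was higher by 3.39 ± 0.36 (limma adjusted p = 0.000198) and Rspo2 lower by -4.92 ± 0.38 (limma adjusted p = 3.79e-05), while the receptor Lgr6 differed by 0.07 ± 0.21. Rspo1 passed the limit only through p53-Dnmt1-null arrays and Rspo2 only through p53-null arrays.

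Of 24 intracellular components 20 were tested, with 3 higher, 6 lower and 11 that did not pass, beside the 19.4% each way over all features. The co-repressors Tle2 and Tle1 were lower by -2.34 ± 0.21 and -1.45 ± 0.21, and the transcription factor Tcf7l2 by -1.01 ± 0.22. Tle3, another co-repressor, was higher by 0.89 ± 0.20, but not without the 48 h pair, at 0.73 (limma adjusted p = 0.0834). Of 25 target genes 15 were tested, with 2 higher, 9 lower and 4 that did not pass, beside the same 19.4% each way. Ccn5, a matricellular protein, was lower by -3.57 ± 0.35, and the mesenchymal transcription factors Twist1, Msx1 and Msx2 by -2.22 ± 0.29, -2.00 ± 0.29 and -1.96 ± 0.31. Axin2, a feedback inhibitor used widely as a readout of the canonical pathway, was named after its values were seen. It read 68.3, 97.4, 202.2 and 28.6 in p53-Dnmt1-null cells, set against 38.2, 85.8 and 40.0 in p53-null cells, and was higher by 0.97 ± 0.33 (limma adjusted p = 0.0484). That call was lost in 5 of 10 alternatives, with adjusted p of 0.00215 to 0.35 over all of them, and without the 48 h pair the difference was 0.42.

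**Figure D3:**
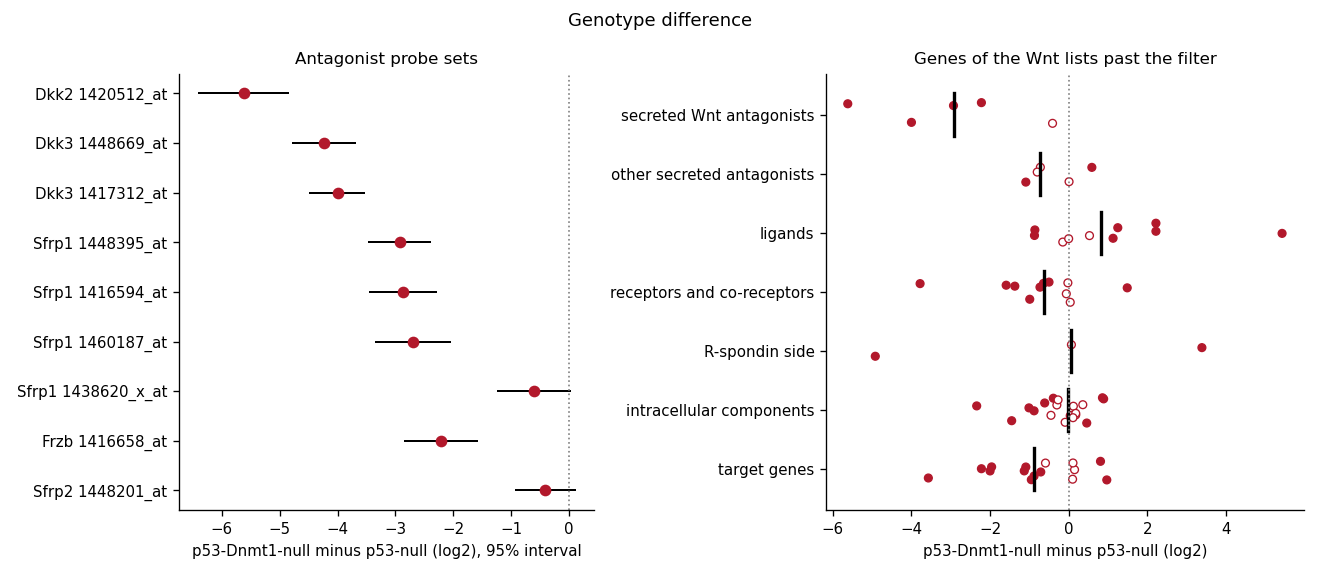
Left, the difference of p53-Dnmt1-null minus p53-null cells on the log2 scale (x axis) for each antagonist probe set tested, with 95% intervals from limma over 3 arrays per genotype. Right, the same difference for each tested gene of the Wnt lists, filled where the limma adjusted p is under 0.05, with the list median as a black bar; the antagonist median is -2.93 and the ligand median 0.83.

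The second question is how the genes respond to inhibition of histone deacetylases. The antagonists that were dim in p53-Dnmt1-null cells remained under 45.6 with TSA, apart from Sfrp1 1438620_x_at at 52.1 after 48 h. In p53-null cells, where they were already read, Dkk2 and most Sfrp1 probe sets had higher signals with TSA. No antagonist passed the limma test in either genotype after adjustment. Limma called 0.0% of all 9390 features in either TSA comparison, so these changes are described by size.

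In p53-null cells Dkk2 was at 263.0 untreated, 691.0 at 24 h and 1108.0 at 48 h, which was 2.56-fold and 4.08-fold of untreated on the scale with the offset. It was the 1 antagonist at least 2-fold higher at both times, as were 1.54% of all features, and 1.0% were as much lower. The pooled TSA difference of Dkk2 was 1.69 ± 0.38 (SE, limma adjusted p = 0.379), with a 95% interval of 0.82 to 2.56. Sfrp1 was at 130.0, 236.7 and 262.2, a difference of 0.88 ± 0.32 (limma adjusted p = 0.536). Its probe set 1460187_at had 56.5, 129.0 and 179.3, or 2.07-fold and 2.81-fold of untreated, and 1416594_at had 84.5, 98.8 and 141.5. Dkk2 and Sfrp1 were the 2 antagonists with an unadjusted p under 0.05, which 4.53% of all features reached on the higher side. The probe set 1438620_x_at did not follow, with 86.1, 43.2 and 79.7.

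Dkk3 had another time course. Both probe sets were close to untreated at 24 h, at -0.08 and -0.10 on the log2 scale, and above it at 48 h, at 0.99 and 1.18. The pooled difference of Dkk3 was 0.45 ± 0.44 (limma adjusted p = 0.821), and 1 array per time gives no check of the 48 h value. Sfrp2 was below untreated at 24 h, at -0.85, and above it at 48 h, at 0.56, with a pooled difference of -0.14 ± 0.51 (limma adjusted p = 0.966). Frzb was above untreated at both times, at 0.80 and 0.71, with a pooled difference of 0.75 ± 0.51 (limma adjusted p = 0.714). In all, 3 of 5 antagonists were above untreated at both times in p53-null cells, as were 38.6% of all features. The summed signal of the 12 fibroblast markers was 30476.6 untreated, 33419.2 at 24 h and 37934.9 at 48 h in these cells, and that of the mesothelial and simple epithelial markers 329.0, 421.4 and 150.9. Their part in the antagonists' values was not tested.

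In p53-Dnmt1-null cells Dkk2 had a pooled TSA difference of -0.04 ± 0.38 (limma adjusted p = 0.988), with a 95% interval of -0.91 to 0.83, and Sfrp1 of 0.03 ± 0.32 (limma adjusted p = 0.99), with an interval of -0.71 to 0.76. Dkk3 differed by 0.35 ± 0.44 and Frzb by 0.44 ± 0.51, the last from 24 h alone, where its signal was 16.3 against 3.4 untreated. These signals are dim, and the offset damps ratios among them. Sfrp2, the bright member, was at 799.3, 1176.7 and 1561.8, a difference of 0.75 ± 0.51 (limma adjusted p = 0.729). The fibroblast marker sum in these cells was 13169.1 untreated, 15351.9 at 24 h and 16673.5 at 48 h, and its part in the Sfrp2 value was not tested. No antagonist was at least 2-fold higher at both times, while 1.87% of all features were, and 0.341% were as much lower. Above untreated at both times were 2 of 5, Dkk3 and Sfrp2, as were 33.5% of all features.

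The TSA response was also compared between genotypes directly. Dkk2 differed most, by -1.73 ± 0.53 for p53-Dnmt1-null minus p53-null (SE, limma adjusted p = 0.994), with a 95% interval of -2.97 to -0.50. At signals of 0.6 to 1.0 in p53-Dnmt1-null cells, the offset of 11.4 largely hides a fold change. The difference thus mostly carries the p53-null response of 1.69, and whether the responses differ cannot be read from it. Dkk2 was the 1 antagonist with an unadjusted p under 0.05, which 1.76% of all features reached on that side, and no feature was called after adjustment. Sfrp1 differed by -0.86 ± 0.45, Frzb by -0.31 ± 0.71, Dkk3 by -0.10 ± 0.62 and Sfrp2 by 0.90 ± 0.72, with limma adjusted p of 0.994 for each. The intervals are wide, at -1.54 to 1.34 for Dkk3 and -0.76 to 2.56 for Sfrp2, so responses of the same size and of clearly different size are both inside them.

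**Figure D4:**
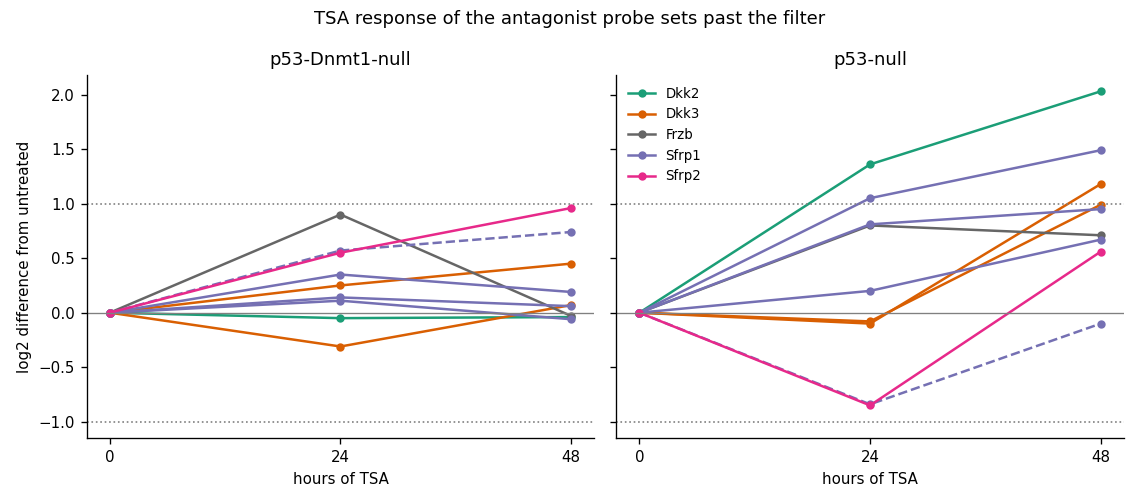
Difference from untreated on the log2 scale (y axis) at 0, 24 and 48 h of TSA (x axis) for the 9 antagonist probe sets tested, in p53-Dnmt1-null cells (left) and p53-null cells (right). Each line is 1 probe set, coloured by gene, with Sfrp1 1438620_x_at dashed and dotted lines at 2-fold; Dkk2 reaches 2.03 at 48 h in p53-null cells and -0.04 in p53-Dnmt1-null cells.

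The last array asks what remains 2 weeks after TSA was removed from p53-Dnmt1-null cells. Dkk2 was at 0.8 after removal against 1.0 untreated, Dkk3 at 37.3 against 24.5, Sfrp1 at 18.6 against 16.1 and Frzb at 2.0 against 3.4. All 4 were still under the limit of 45.6. Sfrp2 was at 437.8 after removal against 799.3 untreated, the lowest of its 7 values. The Sfrp2 difference was -0.85 on the log2 scale, beside a median of -0.13 over all features in this comparison. It sets a single array against a single array, so the spread of neither state was measured. The limma test of this comparison borrows its spread from the 24 h and 48 h arrays. By size, 0 of the 5 antagonists were at least 2-fold higher or lower than untreated, while 4.66% of all features were higher and 9.68% lower. Dkk2 and Frzb were so dim untreated that, with the offset of 11.4, they could not have been 2-fold lower by this rule. By limma 0 of the 5 passed after adjustment, while of all features 0.0106% were called higher and 0.0% lower, and 0 of the 5 had an unadjusted p under 0.05. All 6 marker sums were lower on this array than on the untreated one. The fibroblast sum was 9272.2 after removal against 13169.1 untreated, the mesothelial and simple epithelial sum 9705.9 against 12619.1, and the basal epithelial sum 1205.5 against 1878.7. The macrophage sum was 141.7 after removal against 242.3 untreated, the endothelial sum 23.9 against 97.7, and the neural sum 353.6 against 563.2. The median signal of the whole array was 41.9 after removal against 46.1 untreated. The part of these differences in the Sfrp2 value was not tested.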

How the data were processed

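The deposited values were linear MAS5 signal intensities, 1 for each of 22690 probe sets on each of 7 arrays; MAS5 is named in the submitters' processing notes, and the sources used here give neither its version and scaling target nor detection calls. The intensity values had the same 2% trimmed mean of 150.1 on every array, so the authors had already scaled them. TriZol-purified total RNA was labelled the standard Affymetrix way, per the labels' protocols.

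Probe sets were named through the array's annotation, 20393 with 1 gene symbol, and 20364 symbols were updated through RefSeq. The probe set with the greatest mean log2 signal stood for each gene, without the 64 control probe sets. Of 9390 features above the pooled median of 45.6 on at least 1 array, values were taken as log2(signal + 11.4), the offset being the 25th percentile.

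Features were tested with limma 3.58.1 (R 4.3.3, trend on intensity), adjusted by Benjamini-Hochberg over all features at 0.05, and the fits were tested on simulated data. Genotypes were compared over 6 arrays with TSA time as a factor (2 residual degrees of freedom, prior 6.36), and TSA and removal over 7 arrays with 24 h and 48 h pooled (2 residual, prior 5.75). Arrays at different times stand in for replicates, so p-values reflect how single arrays spread, not how cultures do. In the TSA and removal fit, the residual spread comes only from the gap between 24 h and 48 h in each genotype. Untreated and after-removal arrays have no replicate there, so their SE, intervals and p-values rest on that gap and were not measured. The number of arrays limits the precision. Alternatives were other offsets, filters, normalization, no trend, every probe set as a feature, and leaving out each time. Leaving out a time left fewer residual degrees of freedom, so p-values of those fits lean more on the prior.

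The antagonists and the Wnt and marker lists were chosen with earlier results of these data known. Every antagonist probe set was given. From each Wnt list the up to 4 tested genes with the largest genotype difference were named, any target gene called with TSA (there was none), and for each tested antagonist the 3 most correlated genes.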

Additional observations from a re-analysis of the deposited data

Results flagged for a closer look

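Dkk2 stood out because its signal moved in opposite directions with TSA in the genotypes at both times. On the log2 scale it was at -0.05 and -0.04 from untreated in p53-Dnmt1-null cells and at 1.36 and 2.03 in p53-null cells, at 24 h and 48 h. The difference between these responses was -1.73 ± 0.53 (limma adjusted p = 0.994), so it did not pass after adjustment. The p53-Dnmt1-null signals were 0.6 to 1.0, where a direction has little meaning. No group had enough arrays to look for single arrays far from the rest.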

How the results depend on the processing

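The 4 antagonists called lower between genotypes kept direction and call in all 10 alternatives each, and 5 were called without the 24 h pair, where Sfrp2 joined them. Their highest adjusted p were 0.000681 for Dkk2, 0.00035 for Dkk3, 0.00127 for Sfrp1 and 0.00291 for Frzb. Differences depended on the offset, with ranges of -7.45 to -3.79 for Dkk2, -4.32 to -3.22 for Dkk3, -3.42 to -2.00 for Sfrp1 and -3.12 to -1.17 for Frzb. No TSA or removal comparison called an antagonist under any alternative with a test. Some signs turned when 24 h or 48 h was left out, all in differences that had not passed. With TSA in p53-Dnmt1-null cells this gave -0.06 and 0.11 for Sfrp1 and -0.03 and 0.90 for Frzb. With TSA in p53-null cells it gave 0.99 and -0.08 for Dkk3 and 0.56 and -0.85 for Sfrp2. The difference of TSA responses became -0.54 and 0.33 for Dkk3 and -0.74 and 0.11 for Frzb. Leaving out 1 pair of arrays gave 1112 to 1765 features higher and 1134 to 1707 lower between genotypes, the lowest without the 48 h pair, and the cause was not tested.

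With the offset at the pooled median, features past the size rule numbered 289 higher and 368 lower between genotypes, 66 and 9 with TSA in p53-Dnmt1-null cells, 45 and 41 with TSA in p53-null cells, and 208 and 313 after removal, since a larger offset shrinks every difference. With the offset at the 10th percentile 64 were lower with TSA in p53-Dnmt1-null and 234 higher in p53-null cells. With no filter 61 were lower with TSA in p53-Dnmt1-null cells and 1374 lower after removal. With every probe set a feature these were 53 lower with TSA in p53-Dnmt1-null cells, 145 lower in p53-null cells and 944 higher after removal. Limma called 1 feature with TSA in p53-Dnmt1-null cells, Tex101, under the median offset and also with no trend. After removal it called 1 feature, Malat1, but 0 with no filter or no trend, and 2 with every probe set a feature, both of Malat1. The genotype fits paired the arrays by TSA time throughout, and the labels give no replicate numbers to pair by. Signals under 45.6 have no detection call, so fold changes against them have no firm size.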
